A study of Mus musculus with 3 samples.

Results

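Transcripts of the translation initiation and elongation factors were followed in mouse embryonic stem cells exposed to cycloheximide, a drug that binds the ribosome and blocks the elongation step of protein synthesis. The members were all genes of the count matrices whose symbol starts with Eif or Eef followed by a digit, which gave 70 of 32285 genes. Of these, 61 had a mean of at least 10 CPM, the unit in which UMI counts are scaled to a common library total, over the 3 libraries, and all 61 also reached that level in the control library alone. The 9 members below it were Eef1a2, Eif5a2, Eif2ak3, Eif4e3, Eif4e1b, Eef2k, Eef1akmt2, Eef1akmt3 and Eif2c5, a symbol of the Argonaute type that has no part in either process.

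The cells were E14 cells, an established embryonic stem cell line of 129/Ola background, kept in medium with serum and leukemia inhibitory factor. Exposure began 24 h after seeding. One culture received 250 µg/mL cycloheximide in 0.007% ethanol for 3 h, another received the same for 6 h, and the control received ethanol without drug for 6 h, so no ethanol control matched the duration of the 3 h exposure. All cells were detached with trypsin, frozen and thawed before droplet barcoding with 10x Genomics 3' chemistry, which captures polyadenylated RNA and counts each captured molecule by a unique molecular identifier (UMI). Each group had 1 library. No difference therefore has a replicate check, no test between conditions was made, and every "higher" or "lower" compares these libraries. The 95% intervals given cover counting error only.

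Initiation assembles a ribosome on an mRNA. The eIF4 proteins bind the cap and unwind the leader, eIF3 holds the small subunit, eIF2 carries the initiator tRNA and is recharged with GTP by eIF2B, and eIF1, eIF1A, eIF5 and eIF5B select the start codon and join the large subunit. Elongation then repeats a cycle in which eEF1A delivers each aminoacyl-tRNA, the eEF1B subunits (Eef1b2, Eef1d, Eef1g) recharge eEF1A, and eEF2 moves the ribosome to the next codon. Stem cells in culture divide fast and express both sets of factors at high level.

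Total depth was 127601369 UMIs for the control library, 115188502 for the 3 h library and 150987519 for the 6 h library. Barcodes with at least 15000 UMIs, of which 1 to 20% were mitochondrial (mt- genes), were taken as cells, which gave 2187, 1739 and 2554 cells with median depths of 43160, 51726 and 46200 UMIs. The median mitochondrial share was 4.58% in the control, 3.52% after 3 h and 2.89% at 6 h. Its part in the ratios was not tested beyond an alternative without that limit. Between 1 and 3 cell barcodes were shared by any pair of libraries. All 10 embryonic stem cell markers were above 10 CPM, with a summed level of 7206, 8071 and 7246 CPM, of which Dppa5a made up 4771, 5327 and 5475. After 3 h, 7 of the 10 were above the control, with a median log2 ratio of 0.19 for the list. Only Tfcp2l1 was at least 1.5-fold lower then (10%, against 2.13% of all genes of at least 10 CPM). At 6 h, 8 were below the control, with a median log2 ratio of -0.38 for the list. Of these, 4 were at least 1.5-fold lower (Tfcp2l1, Zfp42, Utf1 and Fgf4), which is 40% of the list, against 7.79% of all genes. None of the 8 fibroblast or 10 differentiation markers reached a mean of 10 CPM over the 3 libraries, though Sox1 had 10.2 CPM after 3 h. The fibroblast markers summed to at most 2.93 CPM, and Col3a1, Lum and Postn had 0 UMIs in every library. The differentiation markers summed to 16.1 CPM in the control, 24.2 CPM after 3 h and 20.8 CPM at 6 h. Over the 7608 genes whose mean reached 10 CPM, the median log2 ratio to the control was 0.11 after 3 h and 0.17 at 6 h. Scaling by TMM factors (trimmed mean of M-values) in place of the library total lowered every log2 ratio by 0.17 after 3 h and 0.29 at 6 h, so directions near 0 depend on the scaling.

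When the core factors of each step were summed in CPM, elongation factor transcripts were lower than in the control and initiation factor transcripts were not. The 6 core elongation genes (Eef1a1, Eef1a2, Eef1b2, Eef1d, Eef1g and Eef2) summed to 10710 CPM in the control, 9813 CPM after 3 h and 9236 CPM at 6 h. The log2 ratio of this sum to the control was -0.13 after 3 h and -0.21 at 6 h. It was lower under TMM as well, at -0.30 and -0.50, but in mean UMIs per cell it was 0.14 after 3 h and -0.11 at 6 h. The 36 core initiation genes summed to 11233, 11833 and 12129 CPM in the same order. Their log2 ratio was 0.075 after 3 h and 0.11 at 6 h in CPM, and -0.10 and -0.18 under TMM, so the direction of the initiation sum depends on the scaling.

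The difference between both sums does not depend on the scaling. Elongation minus initiation was -0.20 on the log2 scale after 3 h (counting interval -0.21 to -0.20) and -0.32 at 6 h (-0.33 to -0.32). Between 3 h and 6 h the difference was -0.12 (-0.13 to -0.12). Expressed as a ratio, core initiation over core elongation UMIs went from 1.05 in the control to 1.21 after 3 h and 1.31 at 6 h. Elongation genes held 40.7% of the UMIs of all members in the control, 37.7% after 3 h and 35.9% at 6 h, while core initiation genes held 42.7%, 45.4% and 47.1%. All 70 members together stayed at 26337, 26046 and 25725 CPM, which is a log2 ratio of -0.016 and -0.034 in CPM but -0.19 and -0.32 under TMM. Without Eef1a1, whose near-identical pseudogenes may share its reads, the difference was -0.13 after 3 h and -0.27 at 6 h. Without Eif4a2, the initiation sum still had log2 ratios of 0.044 and 0.073 in CPM and -0.13 and -0.21 under TMM.

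**Figure D1:**
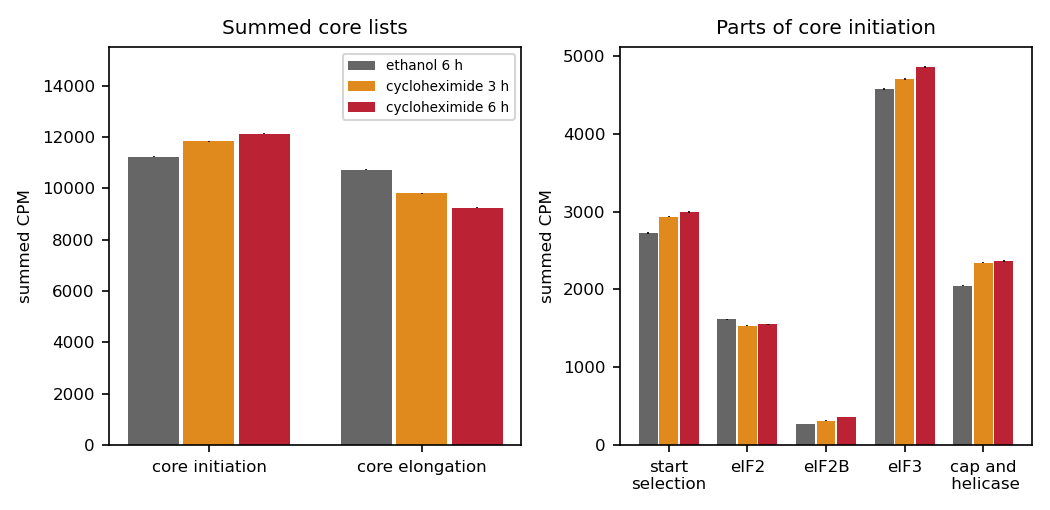
Summed CPM of the core lists (left) and of the 5 parts of core initiation (right) in the ethanol control, after 3 h and at 6 h of cycloheximide, 1 library each; error bars are 95% Poisson intervals and mostly hidden by their size. Core elongation goes from 10710 to 9236 CPM and core initiation from 11233 to 12129 CPM, though the initiation ratio is below 0 on the log2 scale under TMM.

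The same order was seen across the cells of each library, which are not replicates and are described here only as a distribution. The median ratio of core initiation to core elongation UMIs per cell was 1.06 in the control, 1.21 after 3 h and 1.32 at 6 h. At 3 h 88.4% of cells lay above the control median, and at 6 h 97.9% did. The median share of a cell's UMIs in core elongation genes was 1.07%, 0.979% and 0.920%. The median share in core initiation genes was 1.13%, 1.18% and 1.22%. The distributions of the ratio were displaced as a whole and still overlapped, as the histogram of the ratio per cell shows.

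**Figure D2:**
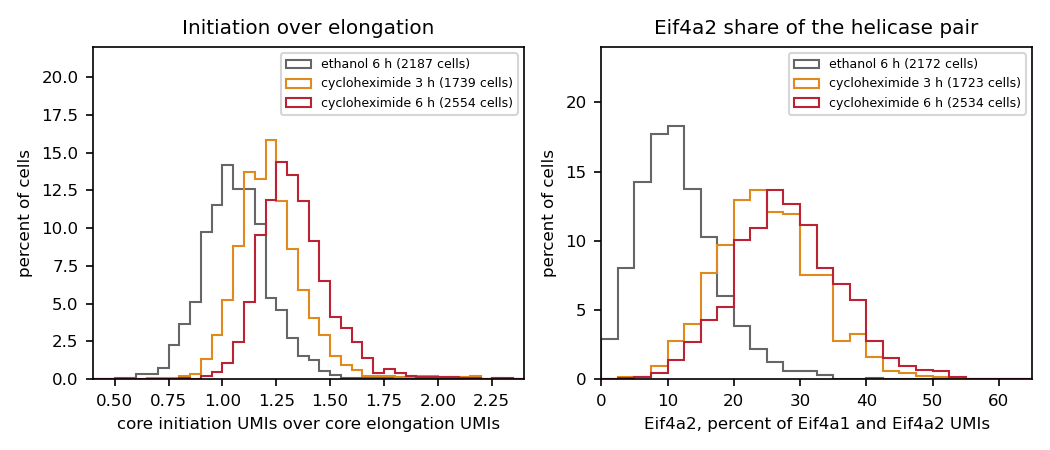
Histograms over cells, in percent of the cells of each library. Left: core initiation UMIs over core elongation UMIs per cell, with medians of 1.06, 1.21 and 1.32; right: Eif4a2 as a percent of Eif4a1 and Eif4a2 UMIs in cells with at least 20 such UMIs, with medians of 10.8, 24.6 and 27.7%.

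Of the core elongation factors, all 5 above 10 CPM were below the median ratio of all genes at both times. Most core initiation genes were not above that median either, with 12 of 36 above it after 3 h and 17 at 6 h. Eef1a1, which encodes the tRNA carrier eEF1A1, is on chromosome 9 (78478449 to 78489151, minus strand, GRCm38). It had 5810 CPM in the control, 5105 CPM after 3 h and 4842 CPM at 6 h. The log2 ratio was -0.19 after 3 h and -0.26 at 6 h. Eef1d, an exchange subunit of eEF1B, had 598, 528 and 487 CPM, with log2 ratios of -0.18 and -0.30. Eef1d overlaps Naprt on the same strand, and how reads of overlapping genes were counted is not given in the sources used here. Eef1b2, the other exchange subunit, had 2275, 2141 and 2027 CPM, with log2 ratios of -0.09 and -0.17. Eef1g, the structural subunit of eEF1B, had 1370, 1360 and 1260 CPM, so it differed from the control mainly at 6 h (-0.12). Eef2, the translocase, had 656, 679 and 619 CPM, with log2 ratios of 0.05 and -0.08. None of the 5 was 1.5-fold from the control, and their log2 ratios at 6 h lay between -0.30 and -0.085.

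These genes are the textbook examples of mRNAs that begin with a pyrimidine tract, together with the ribosomal protein genes. The 83 cytosolic ribosomal protein genes summed to 268571, 246319 and 241009 CPM, a log2 ratio of -0.12 after 3 h and -0.16 at 6 h. Their median, over the 82 above 10 CPM, was -0.10 and -0.11. A list of 9 members of that mRNA class (the 5 elongation factors, Eif3e, Eif3f, Eif3h and Eif4b) had a median of -0.018 after 3 h and -0.085 at 6 h. The elongation factors make up 5 of the 9, so this median is not separate from their values. After 3 h Eif3e, Eif3f, Eif3h and Eif4b had log2 ratios of 0.13, -0.13, -0.018 and 0.10 in CPM. At 6 h, in the same order, these were 0.33, -0.011, 0.084 and -0.054, all above those of the elongation factors. Eif3e, an eIF3 subunit, lay apart from the other listed genes, with 361, 394 and 453 CPM and a log2 ratio of 0.33 at 6 h in CPM and 0.041 under TMM.

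The start-site windows of Eef1a1, Eef1b2 and Eef2, from RefSeq on GRCm38.p6, run from 40 bases before to 30 bases after the annotated start. They are printed to show where runs of 8 or more C or T and the letters TATAA lie (capitals) in genes of this class.
Eef1a1 (chr9:78481695-78481764, minus strand): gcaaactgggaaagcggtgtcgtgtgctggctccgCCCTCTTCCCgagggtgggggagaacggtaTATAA
Eef1b2 (chr1:63176791-63176860, plus strand): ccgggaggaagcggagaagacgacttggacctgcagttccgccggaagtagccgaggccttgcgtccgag
Eef2 (chr10:81176591-81176660, plus strand): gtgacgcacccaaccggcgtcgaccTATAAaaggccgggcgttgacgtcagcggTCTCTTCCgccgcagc
In none of the 3 does a run begin at the annotated start. The Eef1a1 run spans it, from 5 bases before to 5 after, the Eef2 run lies 15 to 22 bases after it, and Eef1b2 has none. TATAA lies 26 to 30 bases after the annotated start in Eef1a1 and 15 to 11 bases before it in Eef2. Whether the annotated starts are those of the mRNAs in these cells was not tested, and shorter runs were not searched. The positions therefore do not show whether these mRNAs begin with a pyrimidine tract. Of the 47 members with a single RefSeq window, 3 held TATAA, searched on both strands (Eef1a1, Eef2 and Eif1), against 7.21% of all 32851 windows of this length. A run of 8 or more C or T on the strand of the gene was found in 19 of the 47, against 26.8% of all windows.

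Eif5a, the hypusine-bearing factor that helps the ribosome through difficult peptide bonds, had 1659, 1690 and 1641 CPM. Its log2 ratio was 0.027 after 3 h and -0.016 at 6 h in CPM, and -0.15 and -0.30 under TMM. Among the genes of elongation factor modifiers and the synthetase complex, 5 were above 10 CPM, and none was 1.5-fold from the control. The widest ratio was that of Eef1akmt1, a lysine methyltransferase of eEF1A, with 75.3, 79.1 and 101 CPM and a log2 ratio of 0.43 at 6 h. Eef2kmt, which methylates eEF2, had 26.7, 30.8 and 35.5 CPM, with a log2 ratio of 0.41 at 6 h. Eef1aknmt, a methyltransferase of eEF1A, had 19.8, 21.2 and 16.7 CPM. Eef1e1, a subunit of the multi-synthetase complex, had 151, 160 and 148 CPM.

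**Figure D3:**
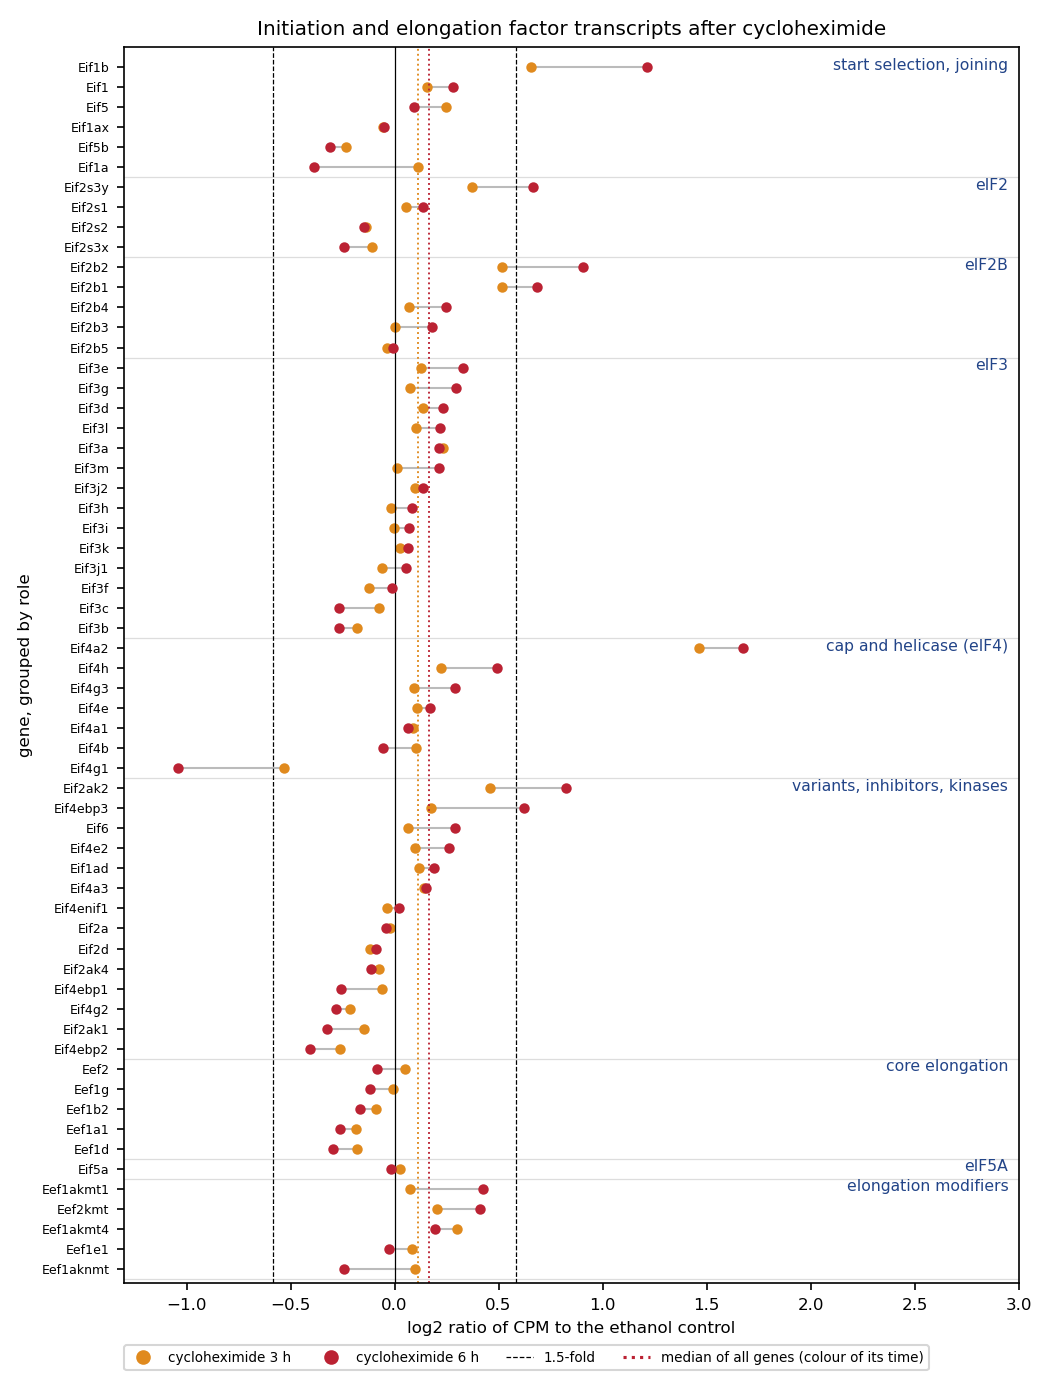
Log2 ratio of CPM to the ethanol control after 3 h (orange) and 6 h (red) for the 61 members above 10 CPM, grouped by role; dashed lines mark 1.5-fold, dotted lines the medians of all genes (0.11 and 0.17). Eif4a2 (1.68) and Eif1b (1.21) are farthest to the right at 6 h and Eif4g1 (-1.04) is farthest to the left, while the 5 core elongation factors sit below both medians.

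At 3 h, 2 of the 61 members were at least 1.5-fold higher than in the control (3.28%, against 13.9% of all 7608 genes) and 0 were at least 1.5-fold lower (against 2.13%). At 6 h, 7 were higher (11.5%, against 22.1% of all genes) and 1 was lower (1.64%, against 7.79%). In CPM both shares of members lay below the background at each time, and 53 members stayed within 1.5-fold at both. The members higher at 6 h were Eif4a2, Eif1b, Eif2b2, Eif2ak2, Eif2b1, Eif2s3y and Eif4ebp3, and the member lower was Eif4g1. Under TMM, 3 of these were higher at 6 h (Eif4a2, Eif1b and Eif2b2), and 5 were lower (Eif4g1, Eif4ebp2, Eif1a, Eif2ak1 and Eif5b). The share of all genes past 1.5-fold under TMM was not computed, so these counts have no background beside them. The median log2 ratio over the 61 members was 0.066 after 3 h and 0.069 at 6 h in CPM, against 0.11 and 0.17 over all genes.

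**Figure D4:**
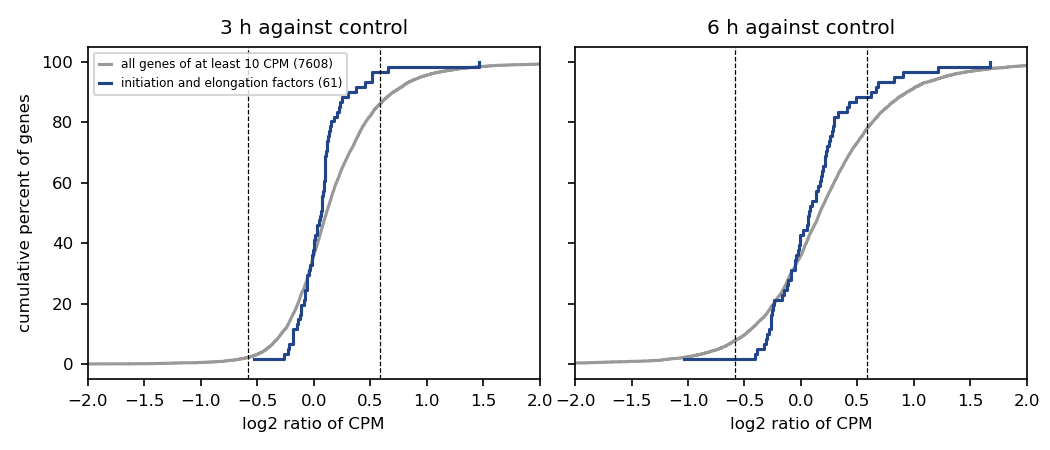
Cumulative percent of genes against the log2 ratio of CPM to the control after 3 h (left) and 6 h (right), for all 7608 genes of at least 10 CPM (grey) and the 61 members (blue); dashed lines mark 1.5-fold. The members' curve is steeper, with 7 members to the right of the upper line and 1 to the left of the lower line at 6 h.

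The cap-binding and helicase group held both ends of the range. Eif4a2 encodes one of the alternative forms of eIF4A, the helicase that unwinds mRNA leaders, and lies on chromosome 16 (23107444 to 23114136, plus strand, GRCm38). It had 147 CPM in the control (95% exact Poisson interval 145 to 149), 405 CPM after 3 h and 470 CPM at 6 h (466 to 473). The log2 ratio was 1.46 after 3 h (1.44 to 1.49) and 1.68 at 6 h (1.65 to 1.70), or 2.76-fold and 3.20-fold. These lie at percentiles 98.4 and 97.8 of all genes. Eif4a1, the other eIF4A gene, had 1140, 1211 and 1194 CPM, with log2 ratios of 0.09 and 0.07 in CPM and -0.09 and -0.22 under TMM. Eif4a2 made up 11.4% of the UMIs of the pair in the control (interval 11.3 to 11.6), 25.1% after 3 h and 28.2% at 6 h (28.1 to 28.4). Such a share is read here only across libraries, since the 3' ends of different genes may be captured with different efficiency.

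Across cells with at least 20 UMIs of the helicase pair, the median Eif4a2 share was 10.8% in the control (2172 cells), 24.6% after 3 h (1723 cells) and 27.7% at 6 h (2534 cells). At 3 h 62.2% of cells, and at 6 h 76.0%, lay above the 95th percentile of the control cells. After each cell was thinned to 15000 UMIs, the mean was 2.24 Eif4a2 UMIs in the control, 6.05 after 3 h and 7.02 at 6 h. In barcodes with 10 to 100 UMIs, a measure of free RNA, Eif4a2 was at 256 CPM in the control, 518 after 3 h and 599 at 6 h. With 10% free RNA subtracted, the log2 ratio was 1.54 after 3 h and 1.76 at 6 h. Eif4a2 overlaps Rfc4 on the opposite strand, and strand use in the counting is not given in the sources used here.

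Eif4g1 encodes the scaffold that ties the cap-binding protein, the helicase and eIF3 together. It lies on chromosome 16 as well (20668313 to 20692884, plus strand). Its level was 272 CPM in the control (269 to 275), 188 CPM after 3 h and 132 CPM at 6 h (131 to 134), a log2 ratio of -0.53 and -1.04, which is 1.45-fold and 2.06-fold lower. It lay at percentiles 2.76 and 2.17 of all genes. In mean UMIs per cell it went from 13.9 to 11.6 and 7.28. Eif4g3, a paralogous scaffold, had 33.4, 35.6 and 40.8 CPM and a log2 ratio of 0.29 at 6 h in CPM and 0.0024 under TMM, so its share of the pair's UMIs went from 10.9% to 15.9% and 23.5%. Eif4g2, a related scaffold without the cap-binding protein's site, had 486, 418 and 399 CPM, with log2 ratios of -0.22 and -0.28.

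The remaining cap-complex genes lay closer to the control. Eif4e, the cap-binding protein itself, had 144, 156 and 163 CPM, with log2 ratios of 0.11 and 0.17. Eif4h, an RNA-binding helper of the helicase, had 144, 168 and 202 CPM and reached a log2 ratio of 0.49 at 6 h. Eif4b, the other helper, had 168, 181 and 162 CPM, with log2 ratios of 0.10 and -0.05. The 7 genes summed to 2049, 2345 and 2363 CPM, a log2 ratio of 0.20 and 0.21 in CPM, but of 0.020 and -0.080 under TMM.

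Among the start-selection and subunit-joining factors, Eif1b was the second member past 1.5-fold at both times. It encodes a close relative of eIF1, the factor that checks the start codon, and lies on chromosome 9 (120492232 to 120495330, plus strand). It had 55.5 CPM in the control (54.1 to 56.9), 87.4 CPM after 3 h and 129 CPM at 6 h (127 to 131). The log2 ratio was 0.66 after 3 h and 1.21 at 6 h, or 1.58-fold and 2.32-fold, and 0.48 and 0.93 under TMM. Eif1 had 1465, 1632 and 1777 CPM, with log2 ratios of 0.16 and 0.28 in CPM and -0.019 and -0.0076 under TMM. The Eif1b share of the pair's UMIs went from 3.65% to 5.08% and 6.75%. Eif1b overlaps D830035M03Rik on the opposite strand.

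The windows of both pairs are printed because the partners differ in their ratios while their proteins are close relatives. Capitals mark TATAA, which is present in the Eif1 window, 10 to 14 bases after the annotated start, and in none of the other 3.
Eif4a1 (chr11:69672394-69672463, minus strand): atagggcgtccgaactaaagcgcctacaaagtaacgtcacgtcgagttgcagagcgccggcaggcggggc
Eif4a2 (chr16:23107428-23107497, plus strand): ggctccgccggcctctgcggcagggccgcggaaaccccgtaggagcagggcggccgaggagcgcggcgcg
Eif1 (chr11:100319909-100319978, plus strand): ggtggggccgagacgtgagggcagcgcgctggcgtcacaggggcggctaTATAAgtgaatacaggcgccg
Eif1b (chr9:120492566-120492635, plus strand): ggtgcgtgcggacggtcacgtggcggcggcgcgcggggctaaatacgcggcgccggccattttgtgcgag
A match is a feature of the letters in this window and was not related to a factor.

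Eif1a and Eif1ax encode near-identical forms of eIF1A, so reads could be shared between them. Eif1a had 229 CPM in the control, 247 CPM after 3 h and 174 CPM at 6 h, the only start-selection gene with its highest level after 3 h and its lowest at 6 h. Its log2 ratio was 0.11 after 3 h and -0.39 at 6 h. Eif1ax had 272, 262 and 263 CPM, with log2 ratios of -0.06 and -0.05. Eif5, the GTPase activator of eIF2, had 314, 373 and 336 CPM, with log2 ratios of 0.25 and 0.09. Eif5b, the GTPase that joins the subunits, had 390, 332 and 315 CPM, with log2 ratios of -0.23 and -0.31. Over the 6 genes of this group the median was 0.14 on the log2 scale after 3 h and 0.021 at 6 h, while Eif1b and Eif1a were its ends at 6 h.

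Among the eIF2 genes, the copies on the sex chromosomes lay on opposite sides of the control in CPM. Eif2s3x and Eif2s3y encode the same subunit, the gamma subunit that holds GTP and the initiator tRNA, from the X and Y chromosomes. Eif2s3x had 109, 101 and 91.7 CPM, with log2 ratios of -0.11 and -0.24. Eif2s3y had 45.1, 58.3 and 71.4 CPM, with log2 ratios of 0.37 and 0.66, or 0.20 and 0.38 under TMM. The sum of both genes was 154, 159 and 163 CPM, and the Y-linked share of it went from 29.3% to 36.7% (interval 36.0 to 37.4) and 43.8% (43.1 to 44.4). Because the sequences of both genes are similar, their split could be affected by the counting of shared reads. Eif2s1, the alpha subunit that stress kinases phosphorylate, had 362, 376 and 397 CPM. Eif2s2, the beta subunit, had 1100, 1001 and 994 CPM, with log2 ratios of -0.14 and -0.15. The sum of the 4 genes had a log2 ratio of -0.073 after 3 h and -0.056 at 6 h, and of -0.25 and -0.34 under TMM.

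The windows of both genes are shown because the 2 copies lay on opposite sides of the control in CPM and under TMM; each holds a run of 8 or more C or T, in capitals. The run of Eif2s3x goes from 5 bases before to 11 after the annotated start and that of Eif2s3y from 2 to 13 after it. The capitals of Eif2s3x also take in a match to GAAANNGAAA on the opposite strand.
Eif2s3x (chrX:94212622-94212691, minus strand): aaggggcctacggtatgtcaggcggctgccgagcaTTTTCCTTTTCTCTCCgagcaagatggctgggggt
Eif2s3y (chrY:1010555-1010624, plus strand): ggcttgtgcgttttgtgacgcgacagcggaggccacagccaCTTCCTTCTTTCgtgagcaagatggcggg

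The eIF2B complex exchanges GDP for GTP on eIF2 and is inhibited by eIF2 once the stress kinases have phosphorylated the alpha subunit of eIF2. Its 5 genes summed to 272, 315 and 358 CPM, a log2 ratio of 0.21 after 3 h and 0.40 at 6 h in CPM. It was the only one of the 5 core initiation groups whose sum was above the control at both times under TMM too (0.034 and 0.11). The genes with the highest ratios were Eif2b2 and Eif2b1, regulatory subunits. Eif2b2 had 43.5 CPM in the control, 62.3 CPM after 3 h and 81.6 CPM at 6 h, with log2 ratios of 0.52 and 0.91 (1.88-fold at 6 h). Eif2b1 had 54.3, 77.7 and 87.2 CPM, with log2 ratios of 0.52 and 0.68 (1.61-fold at 6 h), and 0.34 and 0.40 under TMM. Eif2b4, another regulatory subunit, had 41.1, 43.1 and 48.8 CPM. The catalytic pair lay closer to the control, with 56.4, 56.6 and 64.0 CPM for Eif2b3 and 77.2, 75.2 and 76.8 CPM for Eif2b5.

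The 14 eIF3 genes, which encode the scaffold on the small subunit, stayed close to the control. None was 1.5-fold away at either time, and their log2 ratios at 6 h lay between -0.27 and 0.33. The sum was 4570, 4703 and 4859 CPM, a log2 ratio of 0.041 and 0.088 in CPM and of -0.13 and -0.20 under TMM. At 6 h, 11 of the 14 were above the control in CPM, but under TMM only Eif3e (0.041) and Eif3g (0.010) were. Eif3a, the largest subunit, had 662, 778 and 767 CPM, with log2 ratios of 0.23 and 0.21. Eif3b and Eif3c, which form the core with Eif3a, were at the lower end, with 217, 192 and 180 CPM for Eif3b and 719, 682 and 598 CPM for Eif3c. Both had a log2 ratio of -0.27 at 6 h. The near-identical genes Eif3j1 and Eif3j2 kept their balance, with Eif3j2 at 76.0%, 77.9% and 77.0% of the UMIs of both.

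**Figure D5:**
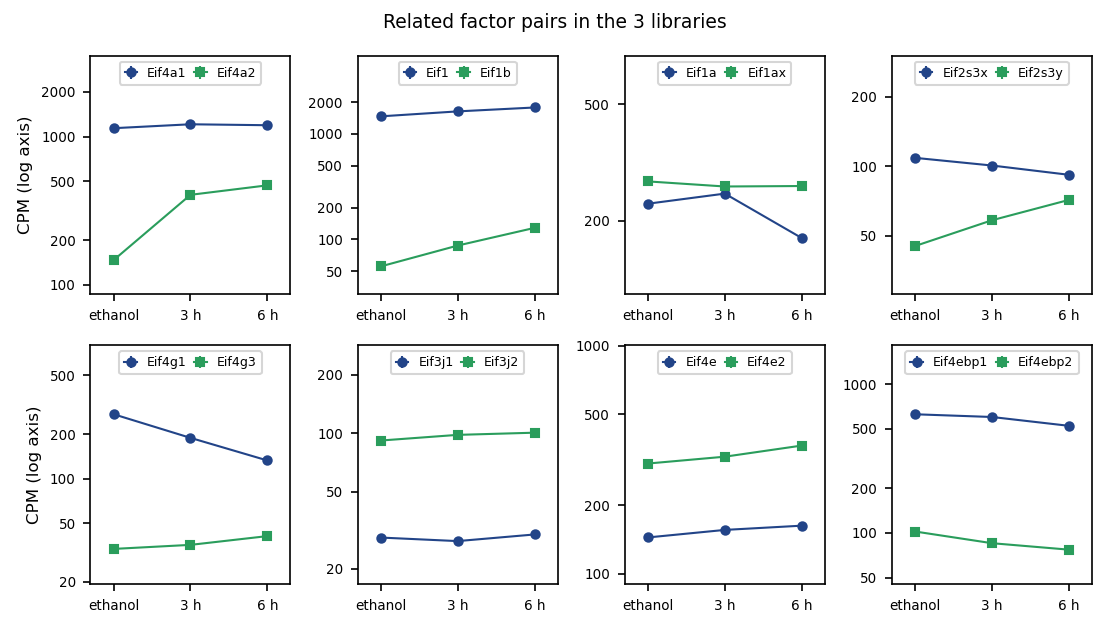
CPM (log axis) of 8 pairs of related factors in the ethanol control and after 3 h and 6 h of cycloheximide, 1 library per point, with 95% Poisson intervals smaller than most symbols. Eif4a2, Eif1b and Eif2s3y lie closer to their partners at 6 h and Eif4g1 lies closer to Eif4g3, while the pairs of Eif3j, Eif4e and Eif4ebp genes run nearly parallel.

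Of the 10 pairs of related factors, 8 had both genes above 10 CPM. At 6 h the difference of log2 ratios within a pair was 1.61 for Eif4a2 over Eif4a1, 1.33 for Eif4g3 over Eif4g1, 0.93 for Eif1b over Eif1 and 0.91 for Eif2s3y over Eif2s3x. In each of these 4 pairs the gene with fewer UMIs in the control had a larger share of the pair at 6 h. In each of the other 4 pairs the gene with fewer UMIs in the control had a smaller share at 6 h. The other 4 pairs differed less, by 0.34 for Eif1ax over Eif1a, 0.09 for Eif4e2 over Eif4e, 0.08 for Eif3j2 over Eif3j1 and -0.15 for Eif4ebp2 over Eif4ebp1. These differences within a library do not depend on its scaling.

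Among the variant factors, inhibitors and kinases, 14 of 17 genes were above 10 CPM, with a median log2 ratio of -0.029 after 3 h and -0.011 at 6 h. Eif2ak2 encodes PKR, a kinase of the eIF2 alpha subunit that is activated by double-stranded RNA and is known as an interferon-induced gene. It had 20.4, 28.0 and 36.1 CPM, with log2 ratios of 0.46 and 0.82 in CPM and 0.28 and 0.54 under TMM. Eif2ak2 overlaps Gm26637 on the opposite strand. Of the other eIF2 kinases, Eif2ak1, which senses heme, had 29.5, 26.7 and 23.6 CPM (-0.32 at 6 h), and Eif2ak4, which senses uncharged tRNA, had 12.7, 12 and 11.7 CPM. Eif2ak3, the kinase of the endoplasmic reticulum, was below 10 CPM, at 7.12, 4.69 and 4.95 CPM.

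The Eif2ak2 window is printed for the sequence in capitals, a match to GAAANNGAAA, the core of the element through which interferon acts.
Eif2ak2 (chr17:78882543-78882612, minus strand): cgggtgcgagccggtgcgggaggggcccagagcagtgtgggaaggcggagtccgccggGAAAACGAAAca
That pattern, on either strand, was found in 2 of the 47 member windows (Eif2ak2 and Eif2s3x), against 0.688% of all windows.

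The 4E-binding proteins hold Eif4e away from the scaffold when mTOR signalling is low. Eif4ebp1 had 627, 601 and 524 CPM (log2 ratio -0.26 at 6 h), and Eif4ebp2 had 102, 85.1 and 77.0 CPM (-0.41 at 6 h). Eif4ebp3 had 16.6, 18.7 and 25.5 CPM and was 1.54-fold higher at 6 h in CPM, with a log2 ratio of 0.62, but 0.33 under TMM. It overlaps AC115631.1 on the same strand. Eif4e2, a cap-binding protein that does not recruit the scaffold, had 304, 326 and 365 CPM, and Eif4enif1, which moves Eif4e to the nucleus, had 33.8, 32.9 and 34.3 CPM. Eif6, which keeps the ribosomal subunits apart, had 256, 268 and 313 CPM, with a log2 ratio of 0.29 at 6 h in CPM and 0.0041 under TMM. Eif4a3, the helicase of the exon junction complex, had 252, 278 and 280 CPM.

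For 43 of the 61 members (70.5%) the log2 ratio had the same sign at both times and was larger in size at 6 h, against 69.6% of all genes. For 8 (13.1%, against 18.6%) it had the same sign and was not larger, and for 10 (16.4%, against 11.9%) the signs differed. Both ratios share the control library, so these counts only describe the values. Compared directly, 0 of 61 members were at least 1.5-fold higher at 6 h than after 3 h (against 1.74% of all genes) and 0 were at least 1.5-fold lower (against 2.52%). The widest differences between both drug libraries were 0.56 for Eif1b, -0.51 for Eif4g1 and -0.50 for Eif1a.

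The annotation of the members was compared with that of all genes. All 70 members matched GENCODE M21 on GRCm38. A transcript annotated as a target of nonsense-mediated decay, a pathway that needs translation, was listed for 12 of the 61 members (19.7%), against 31.6% of all genes of at least 10 CPM. Among the 8 members past 1.5-fold it was listed for 3, Eif4a2, Eif2b1 and Eif4g1. Members with such a transcript had a median ratio of 0.011 (log2) at 6 h, and those without it 0.13. Over all genes these medians were 0.22 and 0.15. A snoRNA gene lay inside 8 of the 61 members on the same strand (13.1%), against 2.77% of all genes. Among the 8 past 1.5-fold these were Eif4a2, which holds Snora81 and Snord2, and Eif4g1, which holds Snord66. Eif4a1, Eef2, Eef1b2, Eif3a, Eif4g2 and Eif5 hold snoRNA genes too, and none of these was 1.5-fold from the control.

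Genes that work beside the factors but carry other symbols were read from lists, and their counts past 1.5-fold at 6 h stand beside 22.1% higher and 7.79% lower over all genes. Of 6 termination and reinitiation genes, 0 were 1.5-fold from the control at 6 h. Etf1, the release factor that reads stop codons, had 286, 252 and 241 CPM, and its partner Gspt1 had 241, 209 and 199 CPM. Of 6 genes of the poly(A)-binding protein group, 1 was 1.5-fold lower at 6 h. That was Pdcd4, an inhibitor of eIF4A, with 18.3, 12.6 and 10.5 CPM. Pabpc1 had 846, 989 and 853 CPM.

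Of 8 signalling genes above 10 CPM, 1 was 1.5-fold higher and 2 were lower at 6 h. Rps6kb2, an S6 kinase, had 10.3, 16.5 and 22.8 CPM. Mknk2, a kinase that acts on Eif4e, had 17.2, 8.71 and 6.32 CPM, and Ppp1r15b, which brings phosphatase to eIF2, had 30.9, 29.6 and 20.4 CPM. Of the 3 hypusine and selenocysteine genes, Dhps, the first enzyme of hypusine synthesis on Eif5a, was higher, with 68.3, 104 and 119 CPM and log2 ratios of 0.61 and 0.80. Of 9 mitochondrial translation factors, 2 were higher at 6 h (Mtrf1l, with 8.43, 16.6 and 21.9 CPM, and Mrrf, with 26.9, 33.8 and 43.5 CPM) and 1 was lower (Mtif2, with 46.9, 27.1 and 25 CPM).

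The members below 10 CPM rest on fewer UMIs than the other members, and several of them on very few. Eef2k, the kinase that inhibits eEF2, was the one with the most UMIs in the control and was singled out after its values were seen. It had 928 UMIs in the control, 478 after 3 h and 369 at 6 h, which are 8.33, 4.47 and 2.63 CPM. Its log2 ratio was -0.90 after 3 h and -1.66 at 6 h (-1.84 to -1.49), or 3.16-fold lower at 6 h. Eef1a2, the form of eEF1A found in muscle and neurons, had 32, 20 and 37 UMIs against 647523, 545455 and 679465 for Eef1a1. Eif5a2 had 4.32, 3.95 and 4.47 CPM. Eef1akmt2 had 7.26, 7.51 and 8.29 CPM, Eef1akmt3 had 0.574, 0.309 and 0.228 CPM, and Eif4e3 had 0.440, 0.608 and 0.991 CPM. Eif4e1b had 0, 2 and 2 UMIs and Eif2c5 had 1, 0 and 1, too few for a ratio.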

How the data were processed

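Single-cell RNA sequencing was done on 3 libraries of E14 mouse embryonic stem cells, 1 per group, grouped by sample title. The deposited matrices hold unnormalized UMI counts of 32285 genes, per the file headers. Cell Ranger 4.0.0 and build mm10 are named by the submitters' processing notes. Whether reads of antisense, overlapping or near-identical genes were separated is not given in the sources used here. UMI counts were summed over barcodes with at least 15000 UMIs and 1 to 20% mt- UMIs and scaled to CPM. The lower limit left out 62, 1 and 8 barcodes. No doublets were removed. A prior of 0.5 counts was added before log2 ratios were taken, and distributions were limited to genes averaging 10 CPM or more. With 1 library per group, no test was made. Intervals are exact Poisson for levels, exact conditional binomial for ratios and shares of pairs, and a normal approximation for the difference of sums, at 95%. The ratio script was tested on simulated data.

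The members and lists were chosen with earlier results of these data known. Values in full were given for the core elongation factors, the 5 highest and 5 lowest members at 6 h, the gene pairs, and the leading member of each role. Alternatives changed the scaling (TMM of edgeR 4.0.16, DESeq2 1.42.0 size factors, UMIs per cell), the barcode limits, free RNA, the floor, the prior, the fold and the lists. Promoter windows came from the RefSeq table of GRCm38.p6, which held 54 of the 70 members, 47 with a single entry. Gene positions came from GENCODE M21. Python 3.11.15, numpy 2.4.6, scipy 1.17.1, pandas 2.3.3, matplotlib 3.10.9 and R 4.3.3 were used.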

Additional observations from a re-analysis of the deposited data

Results flagged for a closer look

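For 5 members the log2 ratio to the control was above 0 at 3 h and below 0 at 6 h, with counting intervals that exclude 0 at each time. The ratio at 6 h minus that at 3 h was -0.50 for Eif1a, -0.34 for Eef1aknmt, -0.15 for Eif4b, -0.13 for Eef2 and -0.043 for Eif5a. The difference was not tested, since each time has 1 library. Under TMM the ratios of all 5 were below 0 at 3 h too (Eif1a -0.060, Eef1aknmt -0.074, Eif4b -0.074, Eef2 -0.13 and Eif5a -0.15), so the change of sign depends on the scaling.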

How the results depend on the processing

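The elongation minus initiation difference was below 0 in every alternative run, though changes of scaling, which cancel within it, could not alter it. It was -0.17, -0.28 and -0.11 (3 h and 6 h against control, then 6 h against 3 h, the order used throughout) for all Eif against all Eef symbols, -0.17, -0.30 and -0.20 for medians, and -0.13, -0.27 and -0.14 without Eef1a1. The sums moved with the scaling. Core initiation was -0.10, -0.18 and -0.076 under TMM, -0.11, -0.19 and -0.083 with DESeq2 size factors, and 0.34, 0.22 and -0.13 in UMIs per cell. Core elongation was -0.30, -0.50 and -0.20 under TMM, -0.31, -0.51 and -0.21 with DESeq2, and 0.14, -0.11 and -0.25 per cell. With all Eif or all Eef symbols, the sums were 0.054, 0.077 and 0.022, and -0.12, -0.20 and -0.083. As medians they were 0.081, 0.13 and 0.087, and -0.088, -0.17 and -0.11. Elongation without Eef1a1 was -0.058, -0.16 and -0.10. It was -0.21 at 6 h with at least 30000 UMIs. With free RNA subtracted, 6 h against 3 h was 0.041 for initiation and -0.082 for elongation. Leaving out barcodes above 2 times the median UMIs, an alternative chosen after seeing the data, gave initiation sums of 0.071 and 0.10.

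Members past 1.5-fold at 3 h were 1 higher and 1 lower under TMM and with DESeq2, 6 higher per cell, 5 lower with no floor, and 1 higher at a fold of 2. At 6 h they were 3 higher under TMM and with DESeq2, 5 lower under TMM and 6 lower with DESeq2, 3 lower with no floor, and 2 higher at a fold of 2. The share of all genes was not computed under these alternatives, so the counts do not set the members apart from other genes. No paired analysis was possible because each group has 1 library. Depth limits the members below 10 CPM, and without replicates the spread between cultures is unknown.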
